A study of Mus musculus with 8 samples.

Results

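The interneurons of the mouse prefrontal cortex (PFC) were compared with those of the striatum. Members were the cells annotated as inhibitory by the authors in each tissue, and they numbered 1119 of 23687 annotated cells, with 298 of 8997 in PFC and 821 of 14690 in striatum. The medium spiny neurons of the striatum, which are GABAergic projection neurons, have annotations of their own and were not members. The series profiled dissociated cells of PFC and striatum by droplet single-cell RNA sequencing in wild-type (WT) male C57BL/6N mice and littermates heterozygous for an 8-bp frameshift in Setd1a, a histone H3K4 methyltransferase. Each tissue had 2 WT and 2 Setd1a+/- libraries, and each library pooled 2 mice. The sample labels call the striatal tissue the nucleus accumbens and give an age of 8 to 10 weeks, whereas the study's text describes dorsal and ventral striatum and its methods another age range. Values below are listed in the order WT 1, WT 2, Setd1a+/- 1 and Setd1a+/- 2 within each tissue.

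Cortical and striatal interneurons release GABA onto nearby cells, and most descend from the medial or the caudal ganglionic eminence of the embryo. In cortex they are usually sorted into parvalbumin, somatostatin (SST), VIP and LAMP5 types. The striatum also holds cholinergic interneurons, interneurons that express tyrosine hydroxylase, and SST interneurons that make neuropeptide Y (NPY) and nitric oxide synthase, whereas VIP cells are rare there.

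All comparisons of tissues rested on 4 PFC against 4 striatal libraries. Tissue cannot be told apart from what went with it, namely the dissection, the longer papain digestion of the striatum and the capture. The libraries held 15154268 to 26277553 UMIs (unique molecular identifiers, each standing for 1 captured transcript), and the interneurons gave 302117 to 502079 UMIs per PFC library and 811931 to 1320303 per striatal library. No pair of libraries shared more than 24 annotated barcodes, and 1 barcode annotated as an interneuron was shared. Setd1a was covered by 4, 6, 0 and 6 UMIs in PFC interneurons and by 18, 20, 8 and 15 in striatal interneurons, and a 3′ count does not read the frameshift, so it does not check the genotype labels.

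The annotated interneurons made up 1.83, 3.73, 4.12 and 3.98% of the annotated cells of the PFC libraries and 5.64, 4.68, 3.64 and 9.94% of those of the striatal libraries. The means were 3.41 ± 1.07% and 5.97 ± 2.77% (SD, n = 4 libraries each), and the ranges overlapped (two-sided exact permutation test, p = 0.114; the smallest p that 4 against 4 libraries allow is 0.0286). Among annotated neurons they made up 10.2 ± 1.68% and 10.9 ± 1.87% (exact permutation test, p = 0.543). Median depth per interneuron overlapped as well, at 4546 to 7398.5 UMIs in PFC and 3799.5 to 5829 in striatum (exact permutation test, p = 0.6). In dissociated tissue, a type that is rarer and a type that is recovered less well cannot be told apart.

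The inhibitory label was first checked against transmitter genes. Gad1 and Gad2, the enzymes of GABA synthesis, had at least 1 UMI in 93.3 to 100% of PFC interneurons per library but in only 73.0 to 81.0% of striatal ones. Each cell was therefore placed in a GABAergic class if it had more UMIs of Gad1, Gad2 and Slc32a1 (the vesicular GABA transporter) than of Slc17a7 and Slc17a6 (vesicular glutamate transporters), Neurod6, Neurod2 and Tbr1 (transcription factors of glutamatergic neurons), and in a glutamatergic class if it had fewer. The glutamatergic class held 0, 1, 0 and 0 PFC cells and 64, 39, 28 and 64 striatal cells. These were 26.0, 20.6, 20.3 and 25.8% of the cells labelled inhibitory in the striatal libraries, and the lowest and highest bounds of their 95% Wilson intervals were 14.4 and 31.8%. In all, 195 of 821 striatal cells (23.8%) against 1 of 298 PFC cells (0.336%) were of this class, 292 PFC and 614 striatal cells were GABAergic, and 5 and 12 had equal counts. Of the 195, 73 had at least 10 more glutamatergic than GABAergic UMIs, and 7 PFC and 53 striatal cells lay within 1 UMI of the boundary.

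Marker genes that did not enter the class rule were compared between the striatal classes. Of 9 such excitatory markers, 5 were higher in glutamatergic cells in all 4 libraries and 2 in 3 of 4, whereas Cux2 was higher in GABAergic cells in 3 and Tshz2 in all 4. Of 8 pan-GABAergic factors, 6 were higher in GABAergic cells in all 4 libraries, Tox3 in 3, and Gata3 was at 0 in both classes. Summed over the cells of a class and expressed as CPM (UMIs per 1000000 of the sum), Nrn1, a neuritin of excitatory neurons, stood at 293, 220, 384 and 197 in glutamatergic cells and at 0, 0, 1.63 and 2.99 in GABAergic cells. Fezf2, a deep-layer factor, was at 24.0 to 52.7 CPM against 0 in all 4 libraries. Conversely, the interneuron factor Sp9 was at 0 in the glutamatergic class and at 12.0 to 26.1 CPM in the GABAergic class. The glutamatergic cells had median depths of 7079, 9164, 7470 and 5659 UMIs, above those of the GABAergic cells (4356, 5355, 5213 and 3421). The label inhibitory thus did not hold for about this share of the striatal cells, so the comparisons below use all labelled cells, as the authors' annotation defines them, and the value in the GABAergic class is added where stated.

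A further share of striatal cells carried Meis2, a homeobox factor that also marks medium spiny neurons. A Meis2 UMI was found in 5 of 292 GABAergic PFC cells (1.71%) and in 207 of 614 striatal ones (33.7%). The striatal shares were 41.2, 34.2, 41.3 and 21.2%, and none of the PFC libraries exceeded 2.22%. Meis2 also stood at 248 CPM in the striatal droplets with fewer than 100 UMIs, which sample free RNA, against 81.0 CPM in those of PFC, and the part of free RNA in the shares was not tested.

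**Figure D1:**
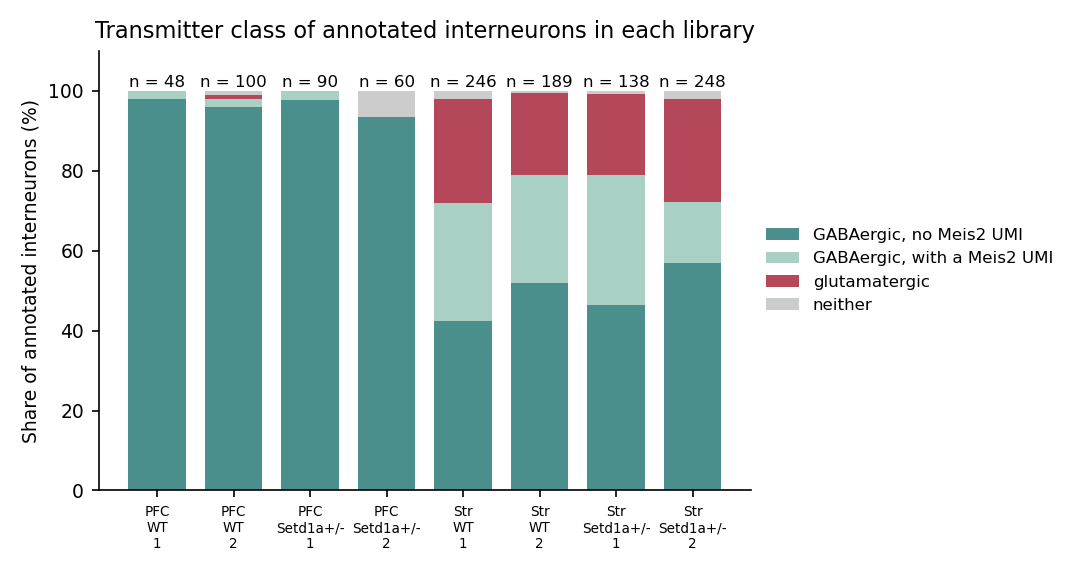
Share of annotated interneurons (%) of each transmitter class in the 8 libraries, with the number of cells above each bar (Str, striatum). The glutamatergic class takes 20.3 to 26.0% of the striatal cells and at most 1% of the PFC cells, and cells with a Meis2 UMI are a larger part of the GABAergic class in each striatal library.

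Classical type genes were compared as the share of interneurons with at least 1 UMI after each cell was thinned to 2000 UMIs, which left out 21 PFC and 15 striatal cells of lower depth. NPY, a peptide of LAMP5 and SST interneurons, was detected in 59.6, 60.9, 56.3 and 54.9% of PFC interneurons and in 7.82, 20.7, 15.4 and 17.6% of striatal ones. Vip, the peptide of the VIP type, was found in 10.6, 10.9, 21.8 and 31.4% against 0.823, 0, 0.735 and 3.77%. Lamp5, a membrane protein of neurogliaform cells, had shares of 28.0 ± 3.08% and 5.05 ± 0.668% (SD, n = 4), and Adarb2, a marker of caudal eminence interneurons, 29.7 ± 7.22% and 4.95 ± 0.655%. In each of these 4 genes the lowest PFC library lay above the highest striatal one.

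Sst, Gad1 and Gad2 were also detected more often in each PFC library, whereas Th and Nkx2-1 were detected more often in each striatal library. Sst shares were 34.0 ± 5.58% and 16.3 ± 5.73%. Th, the enzyme that makes L-DOPA, was found in 2.13, 1.09, 0 and 0% of PFC interneurons and in 4.94, 7.45, 11.03 and 10.9% of striatal ones. Nkx2-1, the medial eminence factor that cortical interneurons shut off and some striatal ones keep, was detected in 0.287 ± 0.575% against 3.03 ± 0.691%. For these 9 genes the two-sided exact permutation test gave p = 0.0286, the smallest possible, which became 0.0540 after Benjamini-Hochberg adjustment over the 17 genes of the family, so that none of the 17 passed. In GABAergic cells alone the same 9 genes and the peptide gene Cck did not overlap, with an adjusted exact permutation p of 0.0486. This value depends on how many genes reach the smallest p. Gad1 and Gad2, which had also chosen the cells, are among these 10, so the adjusted p is given only as a description. Without thinning Sst overlapped between tissues, at 34.5 ± 5.72% and 22.3 ± 8.05%, whereas the other 8 genes, Cck and Chat did not overlap, and these 10 had an adjusted exact permutation p of 0.0486. That value too depends on how many genes reach the smallest p, and cell depth was not made equal. It is likewise given only as a description.

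The remaining 8 type genes overlapped between tissues after thinning. Pvalb was detected in 7.34 ± 7.10% of PFC and 4.20 ± 1.46% of striatal interneurons (exact permutation test, p = 0.543) and Calb2, the calretinin gene, in 16.1 ± 3.11% and 15.5 ± 1.65% (p = 0.8, exact permutation test). Lhx6, the medial eminence factor of SST and parvalbumin cells, was in 8.12 ± 2.95% and 13.8 ± 4.38% (exact permutation test, p = 0.0857), and Nos1, neuronal nitric oxide synthase, in 4.84 ± 2.83% and 8.21 ± 1.64% (exact permutation test, p = 0.0571). Without thinning the order of the means turned for Nos1, at 15.1 ± 5.44% and 12.6 ± 2.77% (exact permutation test, p = 0.429), and for Calb2, at 18.7 ± 3.84% and 20.6 ± 2.79% (exact permutation test, p = 0.4). Chat, the acetylcholine enzyme, was in 1 PFC cell and in 6, 7, 2 and 3 striatal cells before thinning, where its shares of 0.278 ± 0.556% and 2.20 ± 1.13% did not overlap, and in 0.287 ± 0.575% and 0.679 ± 0.573% after thinning, where they did. Oligodendrocytes, which do not make these peptides, served as a gauge of free RNA at median depths of 1888 to 2190.5 UMIs. Their shares reached 10.1% for Npy in a PFC library and 9.14% for Sst in a striatal library. Gad1 and Gad2, which also define the GABAergic class, reached 14.9 and 8.96% in the second striatal Setd1a+/- library (67 oligodendrocytes). In PFC both were at most 2.67%. The striatal Penk share in interneurons was 18.5 ± 3.42%, or 22.6, 17.0, 14.7 and 19.7% per library. In oligodendrocytes of the same libraries it was 15.1, 24.9, 12.7 and 23.9%, and the part of free RNA was not tested. In the first striatal WT library, which had the lowest Npy and Sst shares in interneurons, the oligodendrocytes held Npy in 1.96% and Sst in 4.53% of cells. In its thinned interneurons these shares were 7.82 and 9.47%. The shares of Vip, Th and Nkx2-1 in oligodendrocytes were at most 1.07%, 0.267% and 0%.

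**Figure D2:**
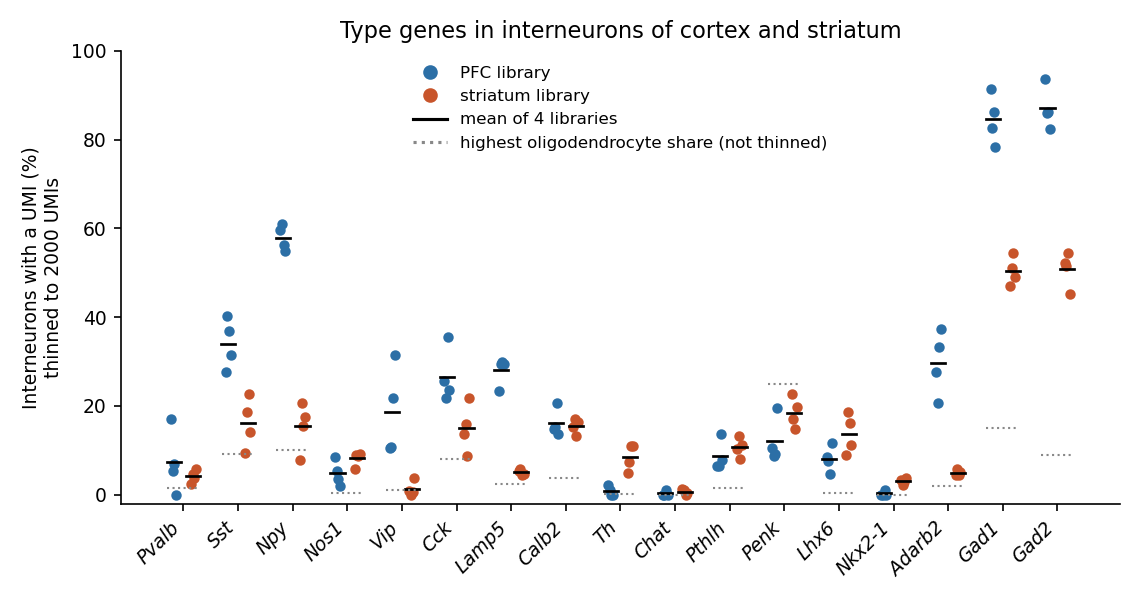
Share of interneurons (%) with a UMI of each of 17 type genes after thinning to 2000 UMIs; each point is 1 library, black bars are means of 4 libraries and dotted lines mark the highest share in oligodendrocytes, not thinned. Npy, Vip, Lamp5, Adarb2, Sst, Gad1 and Gad2 lie higher in all 4 PFC libraries and Th and Nkx2-1 in all 4 striatal libraries, while Pvalb and Calb2 overlap.

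The proximal promoters of Sst, Npy, Vip and Th are shown as 4 of the 9 genes whose shares did not overlap between the tissues, namely 3 peptides and the enzyme of L-DOPA synthesis. The 100 bases before each start site (RefSeq, GRCm38.p6) are written 5′ to 3′ on the gene's strand, with the full cAMP response element TGACGTCA, which reads the same on both strands, or its core TGACG in capitals.
Sst (chr16:23890845-23890944, minus strand): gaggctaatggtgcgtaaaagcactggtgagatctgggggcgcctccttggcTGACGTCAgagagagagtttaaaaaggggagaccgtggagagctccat
Npy (chr6:49822610-49822709, plus strand): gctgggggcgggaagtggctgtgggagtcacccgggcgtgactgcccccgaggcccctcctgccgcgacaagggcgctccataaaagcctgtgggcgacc
Vip (chr10:5639118-5639217, plus strand): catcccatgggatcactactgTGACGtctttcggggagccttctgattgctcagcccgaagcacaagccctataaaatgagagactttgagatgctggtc
Th (chr7:142899996-142900095, minus strand): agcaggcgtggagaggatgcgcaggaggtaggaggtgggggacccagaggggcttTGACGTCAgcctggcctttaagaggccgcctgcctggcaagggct
The full element began at position -48 in Sst and -45 in Th, whose shares lay in opposite directions between the tissues, and the core at -79 in Vip. Within 100 bases of the start, the full element was present in 1.15% of 32851 RefSeq promoters and the core, counted on either strand and also where it lies within the full one, in 10.5%. In promoters of 300 bases the full element was present in 3 of 192 matched genes called higher in PFC (1.56%), in 3 of 242 called higher in striatum (1.24%) and in 248 of 5852 matched tested genes (4.24%).

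Across genes, the UMIs of each library's annotated interneurons were added up, and the tissues were compared by the quasi-likelihood test of edgeR with genotype in the model. A gene was called if its Benjamini-Hochberg false discovery rate (FDR) was below 0.05 and its fold change above 2. Of 7419 genes tested, 320 (4.31%) were higher in striatum and 261 (3.52%) higher in PFC, 7.83% in either direction. The 4 libraries of one tissue did not overlap those of the other in 294 and 244 of these, against 1362 (18.4%) of all tested genes. In GABAergic cells alone, 198 of 6708 genes (2.95%) were higher in striatum and 250 (3.73%) higher in PFC. Of the 320 and 261 genes, 238 and 244 passed the count filter there, and 155 of the 320 (48.4%) and 184 of the 261 (70.5%) were called in both fits. When GABAergic cells with a Meis2 UMI were left out too, 155 and 219 genes were called.

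The 10 genes with the largest excess in striatum had few or no UMIs in PFC interneurons. Lhx8 (chr3:154306294-154330659, GRCm38, minus strand), a LIM homeobox factor of striatal cholinergic and related interneurons, had no UMI in PFC interneurons and 59.1, 98.7, 73.9 and 68.8 CPM in striatal ones, which was at least 40.2-fold higher against a floor of 3 UMIs over the PFC group. It stood at 75.1 CPM over all striatal interneurons and at no more than 10.5 CPM in any other annotated striatal type. Nts, the neurotensin gene, was at 0, 0, 2.22 and 0 CPM in PFC and at 254, 143, 337 and 120 CPM in striatum, a ratio of 332 with a 95% counting interval of 59.4 to 13110. Nts was also at 255 CPM in the annotated D2 medium spiny neurons and at 167 CPM in the striatal empty droplets. That no PFC library reached the level of any striatal library was a condition of the choice of these 10 genes.

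Crabp1 (chr9:54764748-54773110), a cytosolic retinoic acid binding protein, was at 0, 0, 0 and 6.62 CPM in PFC and at 186, 269, 222 and 243 CPM in striatum, a ratio of 184 (counting interval 50.8 to 1520). In the other annotated striatal types Crabp1 was at 15.8 CPM or less. Isl1, a LIM homeobox factor of cholinergic and striatal neurons, had a ratio of 42.6 (11.7 to 354), and Zic1, a zinc finger factor of the ventral forebrain, a ratio of 83.4 (14.8 to 3307). Slc10a4, a vesicular protein of cholinergic and monoaminergic neurons, had a ratio of 114 (20.2 to 4500). Foxp2, a forkhead factor that deep-layer and medium spiny neurons express strongly, had a ratio of 92.1 (16.4 to 3652), and St18 one of 52.4 (9.26 to 2085). Islr2 and Hs3st2, with ratios of 62.3 (11.02 to 2473) and 51.1 (14.0 to 424), did not reach the count filter once the glutamatergic class was left out, whereas the other 8 were called in GABAergic cells too. With the Meis2 cells left out as well, Hs3st2 was tested and called (log2 difference 4.95, edgeR FDR 0.00011), while Islr2 and Foxp2 did not pass the filter. Isl1, Foxp2, Zic1 and St18 stood higher in another annotated striatal type. Isl1 and Foxp2 were at 82.6 and 315 CPM in D1 medium spiny neurons against 53.1 and 57.4 CPM in interneurons. Zic1 was at 118 CPM in endothelial cells against 51.9 CPM, and St18 at 71.1 CPM in oligodendrocytes against 32.7 CPM. Slc10a4 and Hs3st2 stood highest in interneurons, at 70.8 and 63.7 CPM, and Islr2 was at 38.8 CPM against 38.4 CPM in D1 neurons. Each of the 10 genes had 0 to 2 UMIs over the 4 PFC libraries, so that the intervals are wide and cover counting error only.

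In the opposite direction, Rbp4 (chr19:38116629-38125281), a retinol carrier expressed by cortical interneurons and some projection neurons, was at 497, 406, 406 and 265 CPM in PFC and at 5.30, 4.11, 11.1 and 8.49 CPM in striatum. Its log2 difference (striatum minus PFC) was -5.78 ± 0.28 (SE, edgeR FDR 1.2e-08), and it was -5.53 in GABAergic cells. Cort, the cortistatin peptide, was at 386, 359, 162 and 387 against 10.6, 18.1, 7.39 and 10.4 CPM. Vip was at 1966, 1322, 3120 and 4478 against 108, 0, 1.23 and 284 CPM, with a log2 difference of -4.78 ± 0.84 (edgeR FDR 0.0012). Reln, the reelin of LAMP5 and SST interneurons, was at 154 to 268 CPM in PFC and 4.94 to 17.2 CPM in striatum. Ndnf, a marker of layer 1 neurogliaform cells, was at 49.8 to 88.6 against 0 to 9.85 CPM. Lgals1, Npas3, Satb1, Nr2f2 and Lamp5 completed the 10 genes, with log2 differences between -4.74 and -3.37, and the 10 were called in GABAergic cells as well.

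**Figure D3:**
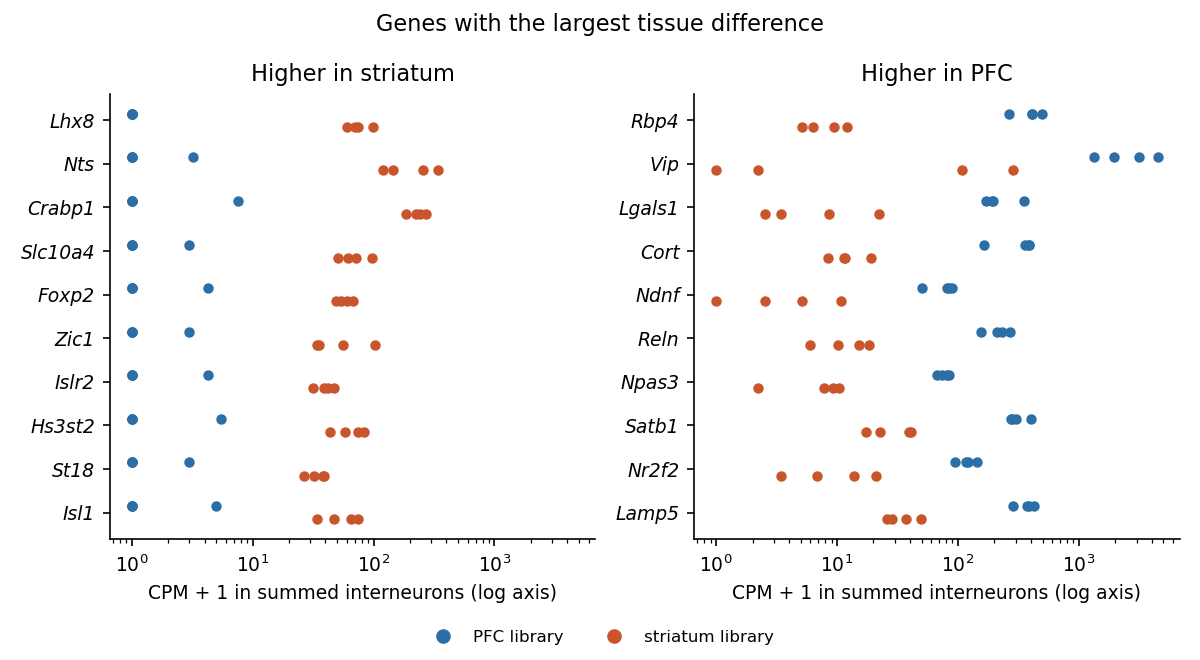
Level in summed interneurons (CPM + 1, log axis) of the 10 genes with the largest difference in each direction; each point is 1 of 4 libraries per tissue. The PFC libraries of the genes on the left hold 0 to 6.62 CPM, and those of Rbp4 on the right lie at 265 to 497 CPM against 4.11 to 11.1 CPM in striatum.

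Counts in the lists below stand beside shares over all tested genes of 4.31% higher in striatum and 3.52% in PFC. In GABAergic cells these shares were 2.95 and 3.73%. Genes of GABA synthesis and transport came first among the lists. Of 5 tested, 3 (Gad1 and Gad2 among them) were called higher in PFC and 0 in striatum, and in GABAergic cells 2 of 5 and 0, although Gad1, Gad2 and Slc32a1 also chose those cells. Over all labelled cells the list had a median log2 difference of -1.41 against -0.0002 over all tested genes. Gad1 was at 1903, 1297, 1644 and 1526 CPM in PFC and at 414, 675, 653 and 608 CPM in striatum, and its log2 difference was -1.41 ± 0.18 (edgeR FDR 7.7e-05). Gad2 differed by -1.84 and was called, and Slc32a1 by -0.88 (edgeR FDR 0.0031), below the fold change. In GABAergic cells the log2 differences of Gad1, Gad2 and Slc32a1 were -0.87, -1.31 and -0.34, given only as a description because these genes chose the class. Gad1 and Gad2 showed the opposite order in droplets with fewer than 100 UMIs, where they stood at 119 and 65.6 CPM in PFC and at 382 and 342 CPM in striatum. Of 5 tested pan-GABAergic transcription factors, 4 (Dlx1, Dlx5 and Tox3 among them) were called higher in PFC over all labelled cells and 2 in GABAergic cells.

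Most called lineage factors of the caudal eminence were higher in PFC, while those of the medial eminence were called in both directions. Of 10 tested factors linked to the caudal eminence, 7 were called higher in PFC and 1 in striatum, both over all labelled cells and in GABAergic cells. Adarb2 was at 300, 155, 271 and 324 CPM in PFC and at 33.3, 23.9, 23.4 and 32.1 CPM in striatum (log2 difference -3.14 ± 0.23, edgeR FDR 4.4e-07). Nr2f2, the COUP-TFII nuclear receptor, was at 93.6 to 142 against 2.46 to 19.8 CPM, and Npas3 at 65.7 to 83.7 against 1.23 to 9.43 CPM. The factor called higher in striatum was Meis2, at 2.86, 15.9, 4.44 and 0 CPM in PFC and 170, 137, 233 and 111 CPM in striatum (4.56 ± 0.45, edgeR FDR 5.7e-06).

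Of 9 tested medial eminence factors, 4 were called higher in striatum (Lhx8, Zic1, Isl1 and Etv1) and 3 higher in PFC (Satb1 and Maf among them), and in GABAergic cells the counts were 5 and 1. Satb1, a chromatin organizer needed for cortical SST cells, was at 280, 398, 275 and 301 CPM in PFC and at 40.1, 16.5, 38.2 and 21.7 CPM in striatum (-3.42 ± 0.26, edgeR FDR 5.0e-07). Etv1, an ETS factor, was at 19.9 to 25.9 CPM in PFC and at 112, 142, 151 and 153 CPM in striatum (2.69 ± 0.22, edgeR FDR 1.2e-06). Lhx6 differed by 0.70 ± 0.27 over all labelled cells (edgeR FDR 0.12) and by 1.15 in GABAergic cells (edgeR FDR 0.0084), where it was called higher in striatum. Nkx2-1 did not pass the count filter, at 8.57, 0, 2.22 and 0 CPM in PFC and 10.6, 10.7, 14.8 and 17.0 CPM in striatum.

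Type genes and transmitter genes followed. Of 10 tested genes of the VIP, CCK and LAMP5 types, 5 were called higher in PFC (Vip, Lamp5, Ndnf, Reln and Tac2) and 0 in striatum. Of 10 tested genes of the SST and NPY types, 6 were higher in PFC (Npy, Cort, Crhbp, Elfn1, Grin3a and Rbp4) and 2 in striatum (Nos1 and the substance P receptor Tacr1). Npy over all labelled interneurons was at 15135, 12884, 7853 and 9960 CPM in PFC and at 1091, 4215, 3605 and 3958 CPM in striatum (-1.79 ± 0.34, edgeR FDR 0.0024). In GABAergic cells its difference was -1.39 (edgeR FDR 0.023), and with the Meis2 cells left out too it was -0.87 and no longer called (edgeR FDR 0.14). Sst overlapped, at 8090, 7463, 8022 and 5600 against 2040, 5692, 5525 and 3681 CPM (-0.76 ± 0.26, edgeR FDR 0.077), and was not called in GABAergic cells (-0.35, edgeR FDR 0.48). Pvalb, at 117, 189, 86.5 and 0 against 54.5, 74.8, 32.0 and 98.1 CPM, did not pass either (edgeR FDR 0.54, and 0.97 in GABAergic cells).

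The called cholinergic genes and Th lay on the striatal side, and of 7 listed cholinergic genes 4 were not tested. Slc5a7, the choline transporter of cholinergic neurons, was at 5.72, 3.98, 8.88 and 6.62 CPM in PFC and at 92.4, 202, 131 and 91.5 CPM in striatum (4.36 ± 0.41, edgeR FDR 4.3e-06). Of 3 tested cholinergic genes 2 were called higher in striatum (Slc5a7 and Ecel1), and in GABAergic cells 3. Chat itself held 1 UMI in PFC and 48 in striatum, a ratio of 17.5 (counting interval 2.99 to 704) with no test. Th was at 2.86, 13.9, 4.44 and 0 against 31.1, 58.4, 70.2 and 71.7 CPM (3.18 ± 0.48, edgeR FDR 0.00036). In GABAergic cells Slc5a7 and Th differed by 4.87 and 3.72 on the log2 scale and stayed called. Pnoc, the prepronociceptin peptide, was higher in PFC, at 301 to 440 against 41.1 to 84.9 CPM.

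Receptor and channel lists were next, beside 4.31% of all tested genes called higher in striatum and 3.52% in PFC. Of 14 tested glutamate receptor subunits, 5 were called higher in PFC (Grin2a, Grin3a, Grik1 and Grik2 among them) and 0 in striatum, and the counts were the same in GABAergic cells. Grik1, a kainate receptor subunit, was at 126, 89.6, 95.4 and 122 CPM in PFC and 13.6, 16.5, 9.85 and 14.1 CPM in striatum (-2.92 ± 0.23, edgeR FDR 7.2e-07). Grin2a, an NMDA receptor subunit, was at 200 to 317 against 65.3 to 81.1 CPM. Of 22 tested potassium and pacemaker channel genes, 6 were called higher in PFC (Kcnab3, Kcnc1, Kcnc2, Kcnmb2 and Kcns3 among them) and 0 in striatum. Kcnc2, the Kv3.2 channel of fast-spiking cells, was at 189, 163, 124 and 99.3 against 23.5, 22.2, 18.5 and 33.0 CPM (-2.52 ± 0.23, edgeR FDR 3.3e-06), and Kcnmb2, a BK channel subunit, at 68.8 to 110 against 6.16 to 11.3 CPM. Sodium and calcium channels had 1 of 17 called in each direction, and GABA-A receptor subunits 2 of 11 in striatum and 1 in PFC. Of 9 tested receptors for dopamine, acetylcholine and serotonin, 2 were called higher in striatum and 1 in PFC, and in GABAergic cells 1 and 1 of 4. Grik1 and Kcnc2 stayed called in GABAergic cells, at -2.51 and -2.25.

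Surface and calcium-binding genes were mixed, and over all tested genes 4.31% were called higher in striatum and 3.52% in PFC. Axon guidance and neuregulin signaling genes had 2 of 17 called higher in striatum and 5 higher in PFC, where Erbb4, the neuregulin receptor of interneurons, and 4 semaphorins were on the PFC side. Epha4, an ephrin receptor, was on the striatal side, at 28.8 to 40.0 CPM in PFC and 120 to 206 CPM in striatum (2.33 ± 0.24, edgeR FDR 7.9e-06). Synaptic adhesion genes had 1 and 4 of 22, cadherins 1 and 1 of 13, and perineuronal matrix genes 1 and 1 of 5. Calcium-binding proteins had 5 of 14 higher in striatum and 2 in PFC, but 3 and 3 of 14 in GABAergic cells, where their median log2 difference went from 0.29 to -0.0095. Pcp4, a calmodulin regulator, was at 294, 390, 217 and 546 CPM in PFC and at 3664, 4381, 3970 and 4202 CPM in striatum (3.51 ± 0.25, edgeR FDR 3.9e-07), and it also stood at 5810 CPM in the striatal empty droplets against 2702 CPM in those of PFC. Epha4 and Pcp4 stayed called in GABAergic cells, at 2.63 and 3.26. Hpcal1, a neuronal calcium sensor, was at 13.2 to 51.8 against 129 to 186 CPM.

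**Figure D4:**
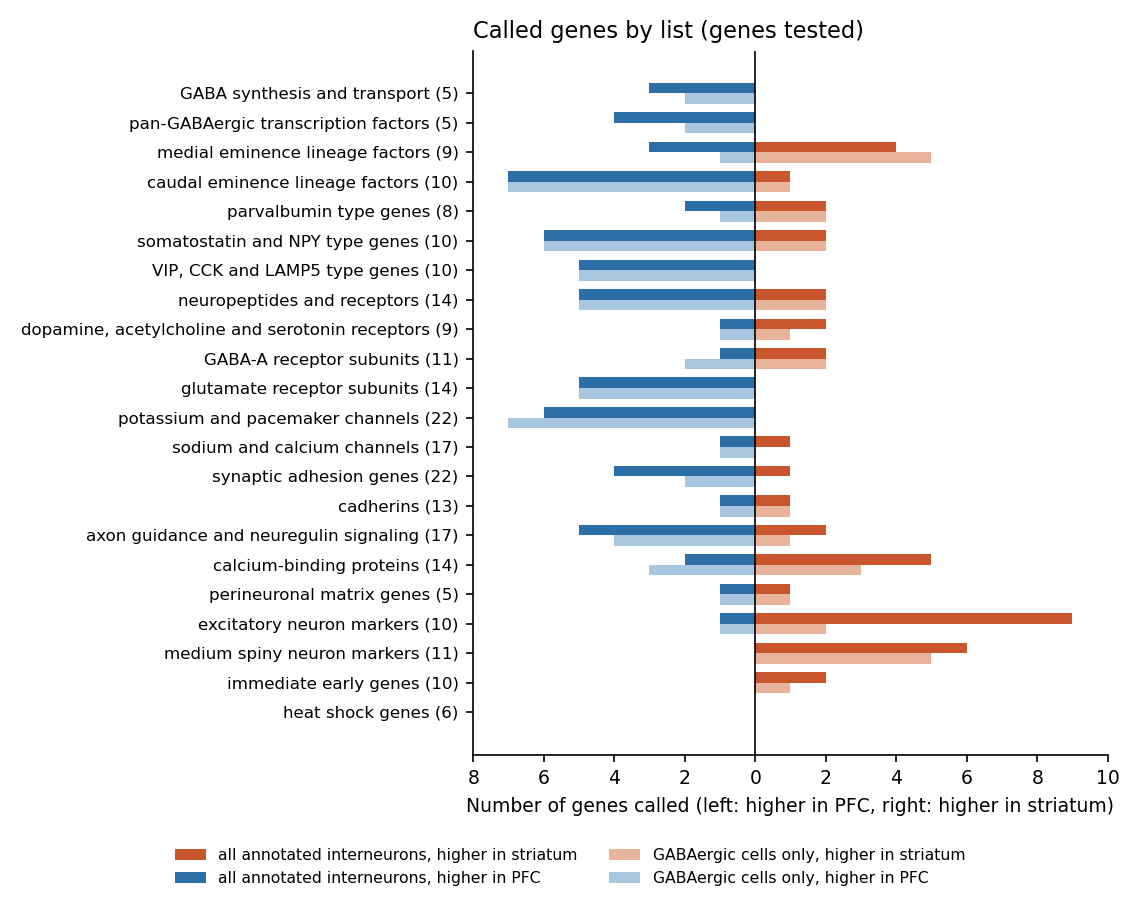
Number of genes called in each list with at least 5 tested genes, to the left higher in PFC and to the right higher in striatum, over all labelled interneurons and in the GABAergic class, with the number tested beside each name. The glutamate receptor and potassium channel lists have 5 and 6 calls toward PFC and 0 toward striatum, and the excitatory marker list has 9 toward striatum over all labelled cells.

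Markers of some other cell types differed between tissues. Of 10 tested excitatory neuron markers, 9 were called higher in striatal interneurons and 1 (Cux2) higher in PFC, and in GABAergic cells 4 were tested, of which 2 and 1 were called. Slc17a7 was at 0, 17.9, 2.22 and 6.62 CPM in PFC interneurons and at 251, 191, 149 and 165 CPM in striatal ones, although the striatal empty droplets held less of it (30.1 CPM) than those of PFC (240 CPM). The 14 excitatory markers summed to 126 to 257 CPM in PFC and 953 to 1165 CPM in striatum, and to 313 to 389 CPM in GABAergic striatal cells. Of these 14 markers 5 also chose the class, so the sum in GABAergic cells is given only as a description. Medium spiny neuron markers had 6 of 11 called higher in striatum and 0 in PFC, and 5 of 9 in GABAergic cells. Their sum over 18 genes was 402 to 616 CPM in PFC and 652 to 785 CPM in striatum, with 5453 to 7635 CPM in the striatal empty droplets. Ppp1r1b, the DARPP-32 gene, was at 2.86, 1.99, 0 and 3.31 against 53.8, 118, 66.5 and 61.3 CPM in interneurons, and at 1022 CPM in the striatal empty droplets.

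Oligodendrocyte markers were called in 3 of 4 and astrocyte markers in 2 of 3 tested genes, higher in striatum in each case. The 7 oligodendrocyte markers summed to 88.8 to 267 CPM in PFC and 265 to 668 CPM in striatum, and the 7 astrocyte markers to 160 to 255 and 261 to 512 CPM. The sums of endothelial, microglial, progenitor, neuroblast, red blood cell, immediate early and heat shock genes overlapped between tissues. In GABAergic cells the neuroblast sum did not overlap, at 136 to 155 CPM in PFC and 178 to 234 CPM in striatum. There 1 of 4 tested neuroblast markers was called higher in striatum. Of 10 tested immediate early genes, Junb and Arc were called higher in striatum, and of 6 heat shock genes none was called. The part of these cells' RNA in the differences was not tested, and without the genes that differed by more than 2-fold in the same direction in empty droplets 223 and 203 genes remained called. Of 48 genes examined under other settings, 20 differed alike in empty droplets, namely Lhx8, Crabp1, Slc10a4, Isl1, Nts, Foxp2, Slc5a7, Th, Meis2, Pcp4, Lhx6 and Ppp1r1b toward striatum and Vip, Cort, Satb1, Ndnf, Lgals1, Pnoc, Grin2a and Kcnc2 toward PFC.

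A tissue difference may be common to many cell types. The difference in interneurons was therefore tested against that in the non-neuronal cells of the same libraries, by the interaction of cell class and tissue with the library as a block. Of 11288 genes tested, the difference in interneurons lay further toward striatum than that in non-neuronal cells in 259 (2.29%) and further toward PFC in 305 (2.7%). A shift toward PFC can also be a smaller striatal excess in interneurons, and a shift toward striatum a smaller PFC excess. Of the 320 and 261 genes called between tissues, 132 (41.2%) and 143 (54.8%) were also called in this test in the same direction, and 3 in the opposite one. Rbp4 (interaction -6.26, edgeR FDR 2.1e-07), Lamp5 (-5.86, edgeR FDR 2.2e-08), Satb1 (-2.89, edgeR FDR 1.6e-06) and Meis2 (3.88, edgeR FDR 1.8e-05) were among those that exceeded the non-neuronal difference. Lamp5 went the other way in the non-neuronal cells, at 1.76 CPM in PFC and 10.2 CPM in striatum, and the part of free RNA in this was not tested. Of the 10 genes with the largest excess, 6 of those in striatum and 8 of those in PFC exceeded the non-neuronal difference. The others were Lhx8, Crabp1, Isl1 and Slc10a4 in striatum (edgeR FDR 1, 0.88, 0.66 and 0.496), of which the first 3 had no UMI in non-neuronal PFC cells, and Cort (-3.12, edgeR FDR 0.16) and Vip (-3.27, edgeR FDR 0.098) in PFC. Npy (-0.80, edgeR FDR 0.51), Pnoc (-1.25, edgeR FDR 0.67) and Th (2.19, edgeR FDR 0.38) did not pass this test either. Non-neuronal levels of Pnoc, Cort, Vip and Th were 0.888, 1.32, 2.92 and 0.418 CPM in PFC. In striatum they were 0.174, 0.253, 0.720 and 0.844 CPM. For genes this low in non-neuronal cells the test cannot decide, because their non-neuronal difference is poorly estimated (SE of the Pnoc interaction 1.20). Not passing does not show that the 2 differences were alike. Of the medium spiny neuron markers 0 had a larger striatal excess than in non-neuronal cells and 7 had a smaller one, and for Ppp1r1b the interaction was 0.27 (edgeR FDR 0.94), with 3.198 CPM in the non-neuronal cells of PFC and 114 CPM in those of striatum. With the glutamatergic class left out, 176 and 338 genes were called, among them 73 of the 320 (22.8%) and 136 of the 261 (52.1%), and 4 were called in the opposite direction. Of the 320, 306 were tested in this fit.

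NPY is made by several interneuron types, and its cells are described here by other type genes. In PFC 28, 59, 54 and 30 interneurons had at least 2 Npy UMIs, and 15, 31, 21 and 40 did in striatum. Of these, 57.1, 54.2, 55.6 and 56.7% had a Lamp5 UMI in PFC but 0, 12.9, 19.0 and 17.5% in striatum. At least 2 Sst UMIs were present in 32.9 ± 4.20% of PFC and 58.7 ± 14.1% of striatal Npy cells (SD, n = 4). A Nos1 UMI was present in 25.3 ± 10.9% and 51.9 ± 8.78%. None of the 3 shares overlapped between tissues, and no test is given because these genes were chosen after their values were seen.

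Interneurons with Sst UMIs, called SST cells here by this gene alone, allowed a comparison within a shared type gene. Interneurons with at least 2 Sst UMIs numbered 13, 38, 29 and 18 in PFC and 19, 32, 29 and 26 in striatum. A Nos1 UMI was found in 2, 1, 0 and 2 of these cells in PFC and in 8, 19, 14 and 13 in striatum, which were 7.28 ± 7.19% and 49.9 ± 7.15%. Chodl, which with Nos1 marks long-range projecting SST cells in cortex, was found in 0, 1, 0 and 0 PFC cells and in 4, 16, 12 and 11 striatal cells. Npy, Nos1 and Chodl occurred together in 1 PFC cell and in 4, 14, 8 and 9 striatal cells. Each of these shares was higher in every striatal library, whereas the share with an Npy UMI overlapped (68.6 ± 17.7% and 58.4 ± 12.2%). These genes too were chosen after their values were seen, and the shares carry no test.

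Cells with few Sst UMIs can hold them from free RNA, in which Sst stood at 479 CPM in PFC and 966 CPM in striatum. With at least 20 Sst UMIs, 13, 35, 28 and 12 PFC and 11, 21, 19 and 16 striatal cells remained. In these a Nos1 UMI was found in 6.64 ± 6.78% of PFC and 72.2 ± 10.2% of striatal cells, and a Chodl UMI in 0.714 ± 1.43% and 57.0 ± 14.9%. The share with an Npy UMI overlapped here too, but the order of the means turned, at 73.3 ± 13.1% and 88.0 ± 16.8%. Meis2, found in none of the PFC SST cells at either threshold, was in 8, 12, 17 and 10 striatal cells at 2 UMIs and in 1, 3, 7 and 2 at 20. These were 44.2 ± 9.83% and 18.2 ± 12.6% of the striatal cells. The striatal set at 2 UMIs, used for the sums below, thus held a larger share of Meis2 cells than that at 20. How many of its cells held Sst from free RNA only was not tested.

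Summed over the cells with at least 2 Sst UMIs, 101 of 2665 tested genes (3.79%) were called higher in striatum and 162 (6.08%) higher in PFC. Sst itself chose these cells and is given only as a description, at 26128, 18043, 20426 and 15939 CPM in PFC and 26816, 33663, 26199 and 30772 CPM in striatum. Npy was higher in the striatal SST cells, at 9158, 3161, 2315 and 1225 against 13203, 22712, 16290 and 24093 CPM (2.61 ± 0.43, edgeR FDR 0.00055), the reverse of its order over all labelled interneurons. Nos1 was at 166, 101, 0 and 18.8 against 661, 980, 709 and 721 CPM (3.71 ± 0.45, edgeR FDR 3.6e-05) and Chodl at 0, 33.7, 0 and 0 against 90.1, 224, 170 and 206 CPM. Tacr1, the substance P receptor, had no UMI in PFC SST cells and 105 to 180 CPM in striatal ones, at least 31.5-fold higher. Hhip, a hedgehog inhibitor, had 2 UMIs in PFC and 195 in striatum, a ratio of 97.0 (counting interval 26.5 to 807). These genes did not overlap between tissues, and with at least 20 Sst UMIs Npy and Nos1 differed by 3.22 and 4.32.

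Of 11 tested genes of the SST and NPY list, with Sst among them, 4 were called higher in striatal SST cells and 5 in those of PFC. Rbp4 was at 1292, 795, 860 and 697 CPM in PFC and 10.0, 0, 5.86 and 0 CPM in striatum, a ratio of 267 (counting interval 73.5 to 2210). Satb1 was at 646, 785, 634 and 829 against 60.1, 14.6, 11.7 and 7.92 CPM (-5.02 ± 0.35, edgeR FDR 1.5e-07), and Reln at 311 to 376 against 11.7 to 30.03 CPM. Calb1, the calbindin gene, was at 859, 790, 1177 and 1064 against 170, 48.8, 23.4 and 198 CPM (-3.17 ± 0.39, edgeR FDR 3.6e-05). Cort differed by -4.36 ± 0.48 (edgeR FDR 1.4e-05) and Mef2c, a MADS-box factor, by -3.79 ± 0.30 (edgeR FDR 4.1e-07). On the striatal side were Pcp4 (4.46 ± 0.33, edgeR FDR 2.4e-07), the imprinted gene Nnat (3.83 ± 0.24, edgeR FDR 5.9e-08) and Lhx6, at 83.1 to 102 against 176 to 463 CPM (1.78 ± 0.26, edgeR FDR 0.00019).

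The GABA genes were measured in SST cells as well. Gad1 was at 453 to 1006 CPM in PFC and 299 to 522 CPM in striatum (-0.58 ± 0.24, edgeR FDR 0.14), Slc32a1 differed by -0.28 ± 0.21 (edgeR FDR 0.43), Gad2 passed the FDR at -0.91 ± 0.21 (edgeR FDR 0.0072) without reaching the fold change, and Sox6, a medial eminence factor, differed by 0.10 ± 0.28 (edgeR FDR 0.86). With at least 20 Sst UMIs Gad2 was called higher in PFC, at -1.64 (edgeR FDR 0.00091), and Gad1 was not, at -0.77 (edgeR FDR 0.079). Glutamate receptor subunits had 7 of 11 and potassium channels 7 of 9 tested genes called higher in PFC SST cells and 0 in striatal ones, with median log2 differences of -1.20 and -2.40 against 0.0008 over all tested genes. Over all tested genes 6.08% were called higher in PFC SST cells and 3.79% in striatal ones. Leaving out the glutamatergic class gave 94 and 157 called genes, and a threshold of 20 Sst UMIs gave 74 and 138 of 2016 tested. Without the first Setd1a+/- striatal library 61 genes were called higher in striatum.

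**Figure D5:**
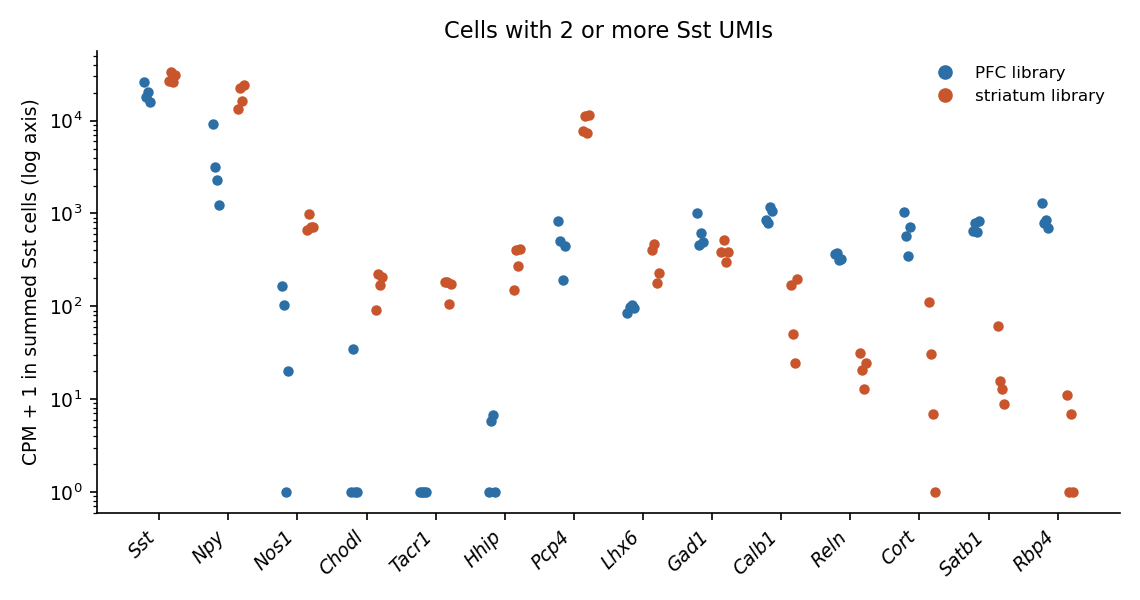
Level in summed cells with at least 2 Sst UMIs (CPM + 1, log axis) of 14 genes; each point is 1 of 4 libraries per tissue. Npy, Nos1, Chodl, Tacr1, Hhip, Pcp4 and Lhx6 lie higher in each striatal library, Calb1, Reln, Cort, Satb1 and Rbp4 in each PFC library, and Gad1 overlaps.

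Parvalbumin cells were too few for a fit. At least 2 Pvalb UMIs were found in 8, 5, 5 and 0 PFC cells and in 5, 9, 6 and 13 striatal cells. Pthlh, a parathyroid hormone-like peptide of striatal fast-spiking cells, had a UMI in 1, 1, 2 and 0 of these PFC cells and in 4, 9, 5 and 12 of these striatal cells. Conversely, cells with at least 2 Pthlh UMIs numbered 3, 4, 5 and 4 in PFC and 30, 29, 11 and 19 in striatum, and 0, 1, 1 and 0 and 7, 11, 5 and 12 of them had a Pvalb UMI.

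The genotype effect was compared between the tissues last. The interaction of Setd1a genotype and tissue was called in 0 of 8374 genes by edgeR at an FDR below 0.05, with 288 genes (3.44%) at an unadjusted p below 0.05, and DESeq2 called 0 with 82 such genes. Over both tissues the genotype effect itself was called in 0 of 7419 genes (193 at an unadjusted p below 0.05, edgeR). The methods place 1 WT and 1 Setd1a+/- sample in each replicate, and with the replicate of each tissue as a block edgeR called 3 of 7419 genes (0.0404%) higher in Setd1a+/- (270 at an unadjusted p below 0.05). They were Fos, an immediate early gene (1.19 ± 0.19, edgeR FDR 0.028), Synpr, a synaptic vesicle protein (0.82 ± 0.14, edgeR FDR 0.028), and Mt2, a metallothionein (1.74 ± 0.30, edgeR FDR 0.032). Fos was at 71.4, 159, 315 and 219 CPM in PFC and 107, 85.5, 287 and 149.9 CPM in striatum. Each of the 3 was higher in the Setd1a+/- library of all 4 pairs, but the fit that called them used these same pairs. Their common direction is therefore given only as a description. Without the block none of the 3 was called (edgeR FDR 0.9996 for each), and the interaction was called in 0 of 8374 genes with the same block (442 at an unadjusted p below 0.05). These counts rest on 2 libraries per genotype and tissue, and the fit of genotype over both tissues and the block within tissue were not planned.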

How the data were processed

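Cells of 8 libraries were captured on the 10x Chromium platform. The deposited matrices hold UMI counts per gene and barcode, made by the authors with Cell Ranger 3.0.2 on mm10, and the deposited annotation gives each kept cell's type from their Seurat 3.2.0 clustering. The methods name no doublet caller, and none was run here. The authors dropped cells with few detected genes or a high mitochondrial share. Counts of cells labelled inhibitory were summed per library and tested with edgeR 4.0.16 (R 4.3.3; TMM, filterByExpr with a minimum count of 10, quasi-likelihood test); CPM are UMIs per 1000000 of a sum. Replicates are libraries of 2 pooled mice each, and p-values measure the spread between them. Shares were tested by exact permutation with scipy 1.17.1, and intervals and floors (3 UMIs) cover counting error only. The fits were tested on simulated data. Some genes of the lists are counted but not reported by name here. Members, lists and comparisons were chosen with earlier results of these data known. Named with values were the called members of 31 lists with the lowest p (at most 4 per list, about 30 in all), the 10 genes with the largest fold change in each direction that did not overlap and had at least 20 UMIs in every library of the higher tissue, and defining genes; in SST cells, and where glutamatergic class, Meis2 and Npy cells are described, genes were chosen after their values were seen. The glutamatergic and GABAergic classes and the SST threshold of 20 were also added after the data were seen. The genotype effect over both tissues and the replicate block within tissue were not planned either.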

Additional observations from a re-analysis of the deposited data

Results flagged for a closer look

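In 22 of 144 groups of 4 libraries the highest or lowest value stood apart from the others by Dixon's criterion, which chance meets in about 1 group in 20. In 10 of the genes listed next the flagged value was 1 library with UMIs where the other 3 PFC libraries had none. These were Nts (2.22 CPM) and Hs3st2 (4.44 CPM) in Setd1a+/- 1, Chat in Setd1a+/- 1 (2.22 CPM, and 1.15% of thinned cells), Crabp1 (6.62 CPM), Foxp2 and Islr2 (3.31 CPM each) in Setd1a+/- 2, and Slc10a4, Zic1 and St18 (1.99 CPM each) and Isl1 (3.98 CPM) in WT 2. The same held for the share of PFC cells with an Nkx2-1 UMI (1.15% in Setd1a+/- 1) and for the glutamatergic share in PFC (1% in WT 2).

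The first PFC WT library had the lowest share of interneurons (1.83%, the others 3.73 to 4.12%), the most genes per interneuron (median 2966.5, the others 2151 to 2259), the lowest Lamp5 share (23.4%, the others 29.4 to 29.9%), the highest Grin2a level (317 CPM) and no Neurod6 UMI (0 CPM, the others 5.98 to 6.66). The second PFC WT library had the highest levels of Etv1 (25.9 CPM) and Lgals1 (353 CPM), and the first Setd1a+/- PFC library the lowest of Cort (162 CPM). In striatum, the Nos1 share of thinned cells was lowest in the first WT library (5.76%, the others 8.82 to 9.21%).

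The tissue difference of interneurons and that of non-neuronal cells differed by the interaction test, toward striatum in interneurons in 259 genes and toward PFC in 305.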

How the results depend on the processing

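The numbers called between tissues (320 higher in striatum, 261 in PFC) moved by more than 1.5 times under some choices. A fold change above 1.5 gave 438 in PFC and no filter on low counts 741 in striatum. The Setd1a+/- libraries alone gave 137 and 121, and sums thinned to the smallest library 167 and 158, where fewer libraries or UMIs entered. Cells with a Gad1 or Gad2 UMI gave 199 in striatum, leaving out the 25% of cells with most markers of other types 204, leaving out the glutamatergic class 198, and leaving out the Meis2 cells as well 155; these settings remove cells, and the cause was not tested further. RLE factors, library size alone, DESeq2 and the WT libraries gave 242 to 320 and 248 to 275. Leaving out each library in turn gave 245 to 467 and 236 to 301 between tissues, 185 to 268 and 234 to 338 for the difference beyond non-neuronal cells, and 61 to 139 and 146 to 198 in SST cells, where 61 came without the first Setd1a+/- striatal library. Same-numbered libraries of the tissues did not deviate together (correlations of -0.0369 to 0.0689), and the replicate block gave 332 and 265; with it the interaction of genotype and tissue was called in 0 genes. Same-numbered libraries of the genotypes correlated at 0.317 in PFC and 0.146 in striatum, and the replicate block within tissue called 3 genes for genotype, against 0 without it, and 0 for the interaction. Of 968 refits of 48 named genes, 951 kept their direction and side of the threshold, 6 lost the call, 7 gained it and 4 changed sign, none of them called. The sign changes were Sst at 0.16 without glutamatergic and Meis2 cells and Pvalb at 0.51 in the Setd1a+/- libraries, 0.046 without glutamatergic cells and 0.70 without Meis2 cells too. Differences in share (striatum minus PFC, percentage points) turned to -2.54 for Nos1 and 1.92 for Calb2 without thinning, and to 3.84 for Calb2 in GABAergic cells, none past the threshold. A further 40 gave no value, 20 of them because the gene differed alike in empty droplets and 20 because it did not pass the filter. Depth limits the genes with few UMIs in PFC, whose interneurons gave 1604774 UMIs against 4408571 in striatum.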

Other observations

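Some gene groups had the same counts whether the glutamatergic class was in or out. Of the tested members, the caudal eminence factors (7 of 10 higher in PFC), the VIP, CCK and LAMP5 type genes (5 of 10) and the glutamate receptor subunits (5 of 14) were called alike in number in both fits, and the median log2 difference of the VIP, CCK and LAMP5 list was -2.08 over all labelled cells and -1.75 in GABAergic cells. The excitatory marker list had a median of 3.78 over 10 tested genes and of 1.45 over the 4 that passed the filter in GABAergic cells, which are different sets of genes. Maf, a factor of medial eminence interneurons, differed by -1.52 over all labelled cells. Gabrg1 and Adamts5, a GABA-A receptor subunit and a matrix protease, were called higher in striatum by 2.00 and 3.02, and Hapln1, a link protein of perineuronal nets, higher in PFC by -1.65. These genes were chosen after their values were seen.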
